A study of Mus musculus with 6 samples.

Results

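Natural killer (NK) receptor and effector genes were measured in the cardiac side population (SP), which is sorted from heart cells by the efflux of a DNA-binding dye. The labels name the side population, and whether all of it or its Sca1+CD31- fraction was sequenced is not given in the sources used here. The 37 genes, of 50600 in the count table, are the 30 genes whose symbol begins with Klr, a letter from a to k and a digit, together with Ncr1, Eomes, Tbx21, Gzma, Gzmb, Prf1 and Nkg7. They were taken by symbol without a filter on expression, but the family as a whole was chosen on earlier results of the same libraries, namely its lower counts in the libraries labelled flt3L-/-. The comparison of the groups is therefore given as a description, and the fitted values carry no independent evidence of its direction.

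SP cells of C57BL/6NRj mice (wild type, wt) were compared with SP cells of mice labelled as knock-outs of Flt3 ligand, the growth factor that binds the receptor Flt3 (C57BL/6Flt3Ltml/mx on a C57BL/6N background, flt3L-/-). All mice were 8 to 12 weeks old, and hearts were depleted of cardiomyocytes and erythrocytes before sorting. Each of the 3 libraries of a group held the sorted cells of 4 pooled mice, and a wt and an flt3L-/- sort shared each of 3 dates, so that libraries are paired and numbered by date (pairs 1 and 2 in 2016, pair 3 in 2017). The label names a knock-out of the whole animal, with no promoter or Cre that would limit it to a cell type.

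Total counts lay between 24370913 and 31145519 per library, and 3 counts, the detection limit used, equalled 0.109 to 0.127 CPM (counts per 1e6 reads after TMM scaling). This limit covers counting error only, since the reads carry no molecular identifiers. Reads of Flt3l, the targeted gene, were not reduced. They stood at 8.67, 10.8 and 12.1 CPM in wt and at 13.6, 12.4 and 14.4 CPM in the other group, and 22.1% of its exon bases are shared with Gm45713. The counts therefore do not check the genotype, the position of the deletion within the gene was not examined, and the group is named by its label throughout.

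NK cells are innate lymphocytes that kill infected, transformed or stressed cells by releasing granules with perforin and granzymes. Their activity is set by the balance of inhibitory receptors, most of which recognise MHC class I molecules, and activating receptors, and in mice most of these are C-type lectin-like proteins of the Klr families, encoded together in the NK gene complex. Several members are not exclusive to NK cells, since cytotoxic T cells and other innate lymphocytes also use granzymes, perforin, Nkg7, Tbx21, Eomes, Klrd1, Klrg1 and Klrk1.

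All 30 Klr genes lie on chromosome 6, and all but Klrg1 and Klrg2 lie between bases 128609227 and 131247362 (GRCm38, GENCODE annotation). Of the 37 members, 33 are protein-coding and 4 are pseudogenes. After a filter of more than 1 CPM in at least 2 libraries, applied to protein-coding genes, 26 members stood among the 13475 genes tested, and 18 of them exceeded 1 CPM in all 6 libraries. A member that passed through its wt libraries alone was bound to look lower in the other group, so counts over the 26 are a description of those genes and not of the family. The 7 protein-coding members that did not pass (Klra5, Klra6, Klra17, Klrb1, Klrb1a, Klrc3 and Klri1) reached at most 3.35 CPM, in Klrc3, and the other 6 at most 0.806 CPM.

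The Klra genes (also known as Ly49) share most of their coding sequence and differ in whether the cytoplasmic tail at the start of the protein inhibits or activates. The first 81 coding bases of Klra8 and Klra4, which encode the activating receptors Ly49H and Ly49D, are shown beside those of 4 inhibitory genes, because the results below differ between these kinds of receptor. Bases in capitals differ from Klra8, positions are counted from 1 at the first base of the start codon, and the sequences come from GENCODE transcripts on GRCm38.
Klra8: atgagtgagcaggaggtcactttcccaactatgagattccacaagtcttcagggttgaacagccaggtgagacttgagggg
Klra4: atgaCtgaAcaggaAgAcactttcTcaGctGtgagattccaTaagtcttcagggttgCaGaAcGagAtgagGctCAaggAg
Klra9: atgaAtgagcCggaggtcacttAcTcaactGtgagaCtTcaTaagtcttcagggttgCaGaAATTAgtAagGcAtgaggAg
Klra7: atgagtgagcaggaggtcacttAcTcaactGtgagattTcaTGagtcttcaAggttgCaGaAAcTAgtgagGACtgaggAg
Klra3: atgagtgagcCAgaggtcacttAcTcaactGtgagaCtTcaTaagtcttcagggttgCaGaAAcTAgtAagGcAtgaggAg
Klra2: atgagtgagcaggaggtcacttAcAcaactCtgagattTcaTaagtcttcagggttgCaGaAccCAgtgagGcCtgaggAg
All 4 inhibitory genes carry the substitution T23A relative to Klra8, which turns the codon of bases 22 to 24 from that of phenylalanine to that of tyrosine. A tyrosine in this stretch belongs to the inhibitory motif of Ly49 tails, and Klra4 has the same codon there as Klra8. Over the aligned coding bases, identity with Klra8 was 91.9% for Klra9, 90.5% for Klra3, 78.6% for Klra4, 77.8% for Klra7 and 69.4% for Klra2.

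Summed over all 37 members, the level was lower in the library labelled flt3L-/- than in its wt partner on each date. The sums were 259, 418 and 926 CPM in wt and at 128, 266 and 96.8 CPM in the libraries labelled flt3L-/-. The wt library was 2.02, 1.57 and 9.57 times as high as its partner, a log2 difference of −1.64 ± 1.41 (SD, n = 3 pairs) for flt3L-/- against wt. The groups overlapped, since wt pair 1 lay below the labelled flt3L-/- library of pair 2. Within a group, the highest library exceeded the lowest 3.57 times in wt and 2.75 times among the libraries labelled flt3L-/-. In bulk RNA, fewer cells of a type and less RNA per cell cannot be told apart.

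Counted gene by gene, 25 of the 37 members were lower in the labelled flt3L-/- library of each of the 3 pairs, and 0 were higher in each. Of the 26 tested, 22 were lower in each pair, against 11.5% of all genes tested, while 14.2% of all genes were higher in each pair. For 15 of the 37 members, and 12 of the 26 tested, every wt library exceeded every library labelled flt3L-/-, against 2.92% of all genes, and 0 members did not overlap in the other direction, against 3.53%. A fitted log2 fold change below 0 was found for 24 of the 26, where 50% of all genes tested had one, and a log2 fold change of −1 or lower for 23, against 2.51%. The median over the 26 was −1.68 and over all genes tested 0.00.

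No member passed edgeR's quasi-likelihood test at a Benjamini-Hochberg adjusted p under 0.05, and neither did any other gene in this fit (0% of 13475). The study's own edgeR fit, made with an earlier version, reported genes at this threshold, with no member among them. Its gene set analysis listed natural killer cell chemotaxis, and the regulation of it, among the sets lower in flt3L-/- cells. Which genes those sets hold was not examined here. At an unadjusted p under 0.05, 12 of the 26 were lower and 0 were higher in the libraries labelled flt3L-/-, against 2.49% and 1.11% of all genes tested. DESeq2, run as an alternative, called 2 members at an adjusted p under 0.05, both lower, against 0.156% of all genes tested, and 22 members were lower at its unadjusted p under 0.05, against 3.52%. These 2 were Klra4 (adjusted p = 0.000924) and Klrb1b (adjusted p = 0.0370). Under edgeR's settings, their adjusted p lay between 0.510 and 0.999 for Klra4 and between 0.537 and 0.999 for Klrb1b.

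Much of the size of these differences came from pair 3. For 24 of the 26 tested members wt pair 3 was the highest of the 6 libraries, for 19 the labelled flt3L-/- library of pair 3 was the lowest, and 25 had their largest drop there. The median log2 difference within a pair was −1.10 in pair 1, −0.52 in pair 2 and −3.37 in pair 3. The number of tested members lower in the labelled flt3L-/- library was 25, 22 and 25 in these pairs, against 45.9%, 49.6% and 48.8% of all genes tested. With pair 3 left out the median fitted log2 fold change was −0.90, and 10 members were lower at an unadjusted p under 0.05 (1.06% of all genes). It was −1.92 without pair 1, with 6 such members (1.97% of all genes), and −2.29 without pair 2, with 22 (5.70% of all genes).

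**Figure D1:**
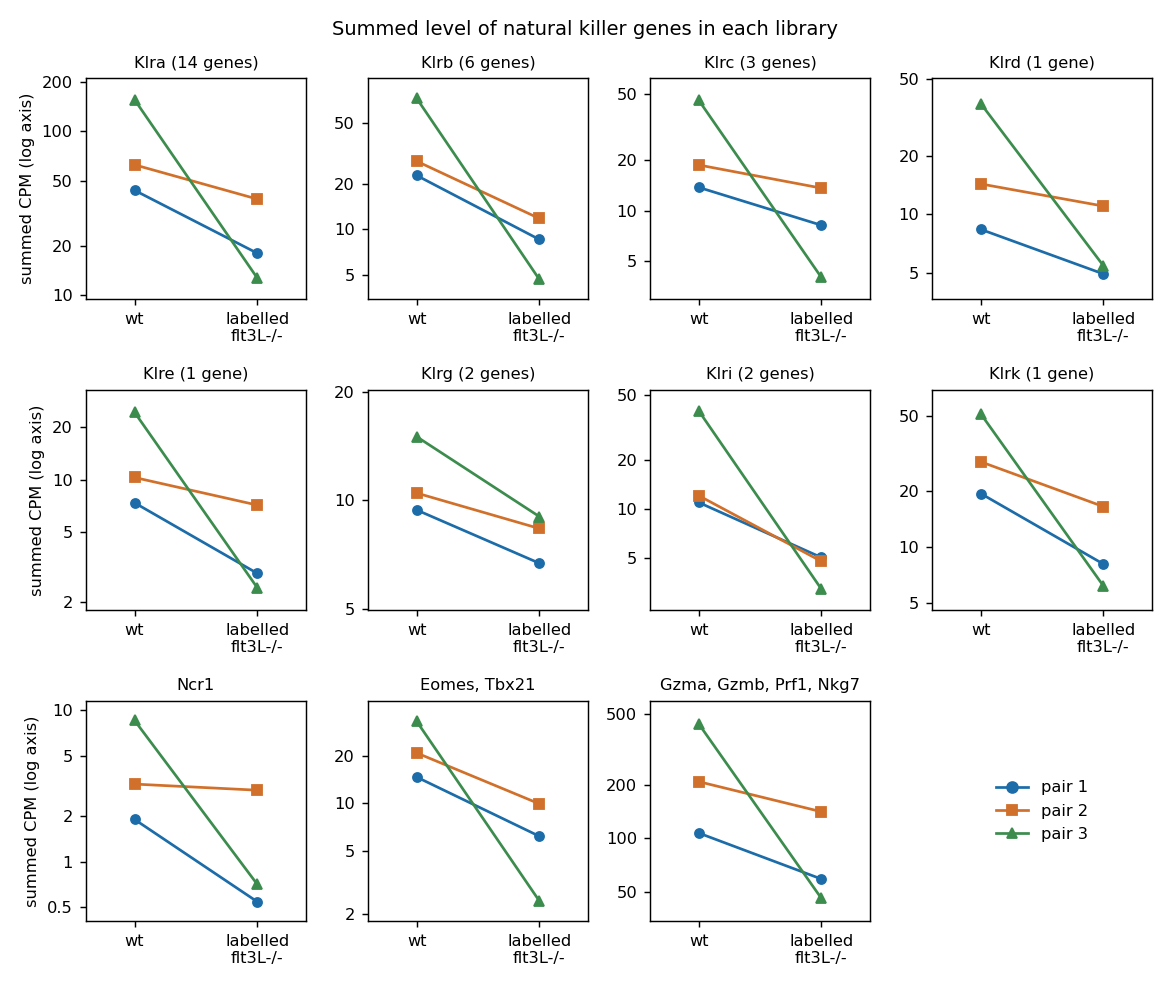
Summed CPM (log axis, a separate scale in each panel) of each receptor subfamily, of Ncr1, of both transcription factors and of the effector genes in the 3 wt libraries and the 3 libraries labelled flt3L-/-, with a line joining the libraries sorted on the same date. Every line falls from wt to flt3L-/-, those of pair 3 fall the most, and the Klra sum goes from 156 to 12.7 CPM in pair 3.

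Klrk1 (NKG2D, ENSMUSG00000030149, chr6:129610323-129623864) is an activating receptor that binds stress-induced MHC-like ligands. Its level was 19.3, 28.5 and 51.5 CPM in wt and at 8.09, 16.4 and 6.17 CPM in the libraries labelled flt3L-/-. Every wt library exceeded every library of the other group, and the fitted log2 fold change was −1.68 ± 0.49 (SE). Klrb1c (NK1.1, ENSMUSG00000030325, chr6:128778485-128789215), the receptor by which NK cells of this strain are commonly stained, stood at 7.93, 11.1 and 33.7 CPM in wt. It stood at 2.73, 4.92 and 2.53 CPM in the libraries labelled flt3L-/-, again without overlap, with a log2 fold change of −2.11 ± 0.59.

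Klri2, an activating receptor that pairs with Klre1, was at 10.96, 11.8 and 39.8 CPM in wt and at 4.99, 4.71 and 3.21 CPM in the libraries labelled flt3L-/-. The groups did not overlap, and the log2 fold change was −1.99 ± 0.58. Its inhibitory counterpart Klri1 had at most 8 counts in any library, so no difference was detectable at this depth. Ncr1 (NKp46), the activating receptor most closely tied to NK cells and related innate lymphocytes, stood at 1.91, 3.26 and 8.57 CPM in wt and at 0.546, 2.97 and 0.712 CPM in the other group. Its groups overlapped, the pair 2 libraries were nearly level, and the log2 fold change was −1.80 ± 0.77.

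The Klrb family holds activating and inhibitory receptors, several of which recognise Clec2 proteins. Klrb1b (NKR-P1D, ENSMUSG00000079298, chr6:128813706-128826331), which is inhibitory, stood at 12.7, 14.2 and 30.5 CPM in wt and at 4.63, 4.80 and 1.66 CPM in the libraries labelled flt3L-/-. The groups lay apart in every library, with a log2 fold change of −2.33 ± 0.65. Klrb1f, an activating receptor, stood at 1.75, 2.52 and 7.56 CPM in wt and at 0.911, 1.99 and 0.396 CPM in the other group, and its groups overlapped (−1.69 ± 0.90). Klrb1 and Klrb1a had at most 12 counts in a library, and Klrb1-ps1 had 0 counts in all 6, which allows a level of up to 0.127 CPM in the shallowest library. As many as 26.9% of the exon bases of Klrb1b and 14.0% of those of Klrb1c also belong to Gm44511, a gene model that overlaps both, and reads in these bases could not be told apart between the genes.

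In the Klra family the activating genes had lower log2 fold changes than all inhibitory ones tested, of which Klra10 came closest at −2.01 ± 0.87 (SE). Klra8 (ENSMUSG00000089727, chr6:130115226-130129898), whose Ly49H protein recognises a cytomegalovirus protein, stood at 7.97, 11.3 and 42.1 CPM in wt and at 2.59, 4.80 and 1.70 CPM in the libraries labelled flt3L-/-. It did not overlap between the groups, with a log2 fold change of −2.40 ± 0.78. Klra4 (ENSMUSG00000079852, chr6:130043731-130067271), named here after its values were seen because it ranked first of the members by p (rank 22 of all genes tested, unadjusted p = 0.00493 by edgeR), stood at 6.61, 7.95 and 20.6 CPM in wt. In the libraries labelled flt3L-/- it stood at 1.31, 1.99 and 0.950 CPM, so that the lowest wt library lay well above the highest of the other group, and its log2 fold change was −2.88 ± 0.59, the lowest of the 26.

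Klra9 (Ly49I, ENSMUSG00000033024), an inhibitory receptor for MHC class I, stood at 9.95, 15.3 and 20.2 CPM in wt and at 5.65, 11.03 and 4.04 CPM in the other group. Its groups overlapped, and the log2 fold change was −1.19 ± 0.43. Klra7 (Ly49G), also inhibitory, had a log2 fold change of −1.27 ± 0.57 and overlapped as well. The other inhibitory genes tested, Klra1, Klra3, Klra10 and Klra2, reached at most 4.36 CPM. Klra10 was lower in each pair and did not overlap (−2.01 ± 0.87). It passed the filter through its wt libraries alone, so a lower value was built in. Its lowest value, 0.119 CPM, rests on 3 counts, the detection limit. Klra3 (−1.52 ± 0.74) and Klra1 (−0.92 ± 0.71) overlapped. Klra2 (Ly49B), which myeloid cells also express, stood at 0 (a limit of 0.117), 2.17 and 3.84 CPM in wt and at 1.60, 3.18 and 0.119 CPM in the other group, and it was higher in the labelled flt3L-/- library in pairs 1 and 2 (0.28 ± 2.14). The sign of this fit turned to −1.76 without pair 1 and to −0.22 without pair 2.

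The pseudogene Klra13-ps (ENSMUSG00000030178), which had the highest level per exon length of the family in wt, stood at 10.3, 14.1 and 39.3 CPM in wt and at 2.95, 6.37 and 1.98 CPM in the libraries labelled flt3L-/-. These values did not overlap between the groups, but pseudogenes were not in the fit. Klra11-ps and Klra14-ps were lower in each pair too and reached at most 3.95 CPM. Klra5, Klra6 and Klra17 had at most 19 counts in a library, of which the highest was in the labelled flt3L-/- library of pair 2 for Klra5.

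**Figure D2:**
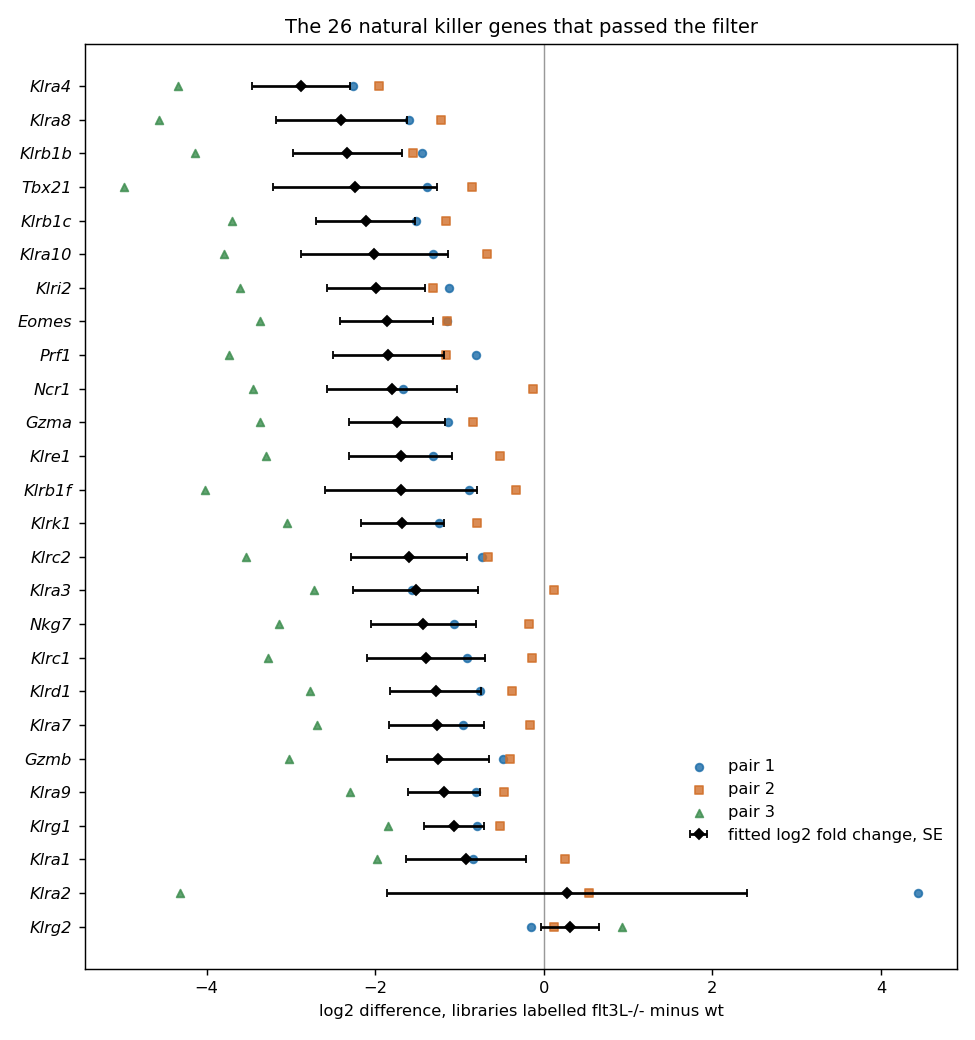
Log2 differences of the 26 tested members between the libraries labelled flt3L-/- and wt, with the fitted log2 fold change and its SE in black and the difference within each sorting date in colour. The members are ordered by fitted value from Klra4 at −2.88 to Klrg2 at 0.31, and the points of pair 3 lie furthest to the left for all but Klrg2.

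The Klrc genes encode NKG2 chains that pair with CD94, the product of Klrd1, and bind the MHC class I molecule Qa-1. Klrd1 stood at 8.36, 14.4 and 37.4 CPM in wt and at 4.92, 11.03 and 5.42 CPM in the libraries labelled flt3L-/-. It was lower in each pair, with overlapping groups and a log2 fold change of −1.28 ± 0.54. The inhibitory chain Klrc1 (NKG2A) stood at 5.91, 8.30 and 12.9 CPM in wt and at 3.10, 7.51 and 1.27 CPM in the other group (−1.40 ± 0.70, with overlap). The activating chain Klrc2 (NKG2C) stood at 7.70, 9.55 and 29.6 CPM in wt and at 4.59, 5.98 and 2.49 CPM in the other group (−1.59 ± 0.69, without overlap). Their ratio, Klrc1 to Klrc2, overlapped between the groups and was higher in the labelled flt3L-/- library in pairs 2 and 3. Klrc3 was below 1 CPM except for wt pair 3, at 3.35 CPM.

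Klre1, a partner of the Klri chains, stood at 7.39, 10.3 and 24.4 CPM in wt and at 2.91, 7.17 and 2.41 CPM in the libraries labelled flt3L-/-, without overlap (−1.70 ± 0.61). Of the Klr subfamilies, Klrg had the smallest difference of its sum in each pair. Klrg1, an inhibitory receptor for cadherins found on mature NK and T cells, stood at 5.37, 7.80 and 12.03 CPM in wt and at 3.06, 5.43 and 3.29 CPM in the other group. It was lower in each pair with overlapping groups, and its log2 fold change was −1.06 ± 0.36. Klrg2, at 4.04, 2.68 and 2.98 CPM in wt and at 3.64, 2.93 and 5.74 CPM in the libraries labelled flt3L-/-, was lower in pair 1 alone. Its log2 fold change was 0.31 ± 0.35, and −0.013 without pair 3.

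Eomes and Tbx21 encode the T-box transcription factors of NK cell differentiation. Eomes stood at 9.76, 15.1 and 23.2 CPM in wt and at 4.37, 6.79 and 2.18 CPM in the libraries labelled flt3L-/-, and Tbx21 at 4.90, 5.74 and 9.83 CPM and at 1.82, 3.14 and 0.238 CPM. Neither gene overlapped between the groups, and the log2 fold changes were −1.86 ± 0.55 for Eomes and −2.24 ± 0.97 for Tbx21. The lowest Tbx21 value rests on 6 counts.

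The effector genes had the highest levels per exon length of all members. In wt, the mean was 61.3 CPM per 1000 exon bases for Nkg7, 58.5 for Gzma, 58.3 for Gzmb and 20.8 for Prf1, followed by 20.4 for Klra13-ps, 17.4 for Klra8, 15.6 for Klrd1 and 11.9 for Klra9. The distances between Nkg7, Gzma and Gzmb, and those between Prf1 and Klra13-ps, were far smaller than the spread between the wt libraries. Together the 4 effector genes took 41.3% to 53.1% of the summed member CPM of the 6 libraries. The plot of family sums shows them falling from 107, 209 and 441 CPM in wt to 59.0, 141 and 46.0 CPM.

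Gzma, granzyme A (ENSMUSG00000023132, chr13:113093825-113100981), stood at 28.7, 52.7 and 95.1 CPM in wt and at 13.0, 29.5 and 9.14 CPM in the libraries labelled flt3L-/-. The groups overlapped narrowly, between wt pair 1 and the pair 2 library of the other group, and the log2 fold change was −1.74 ± 0.57. Prf1, perforin, which forms the pore through which granzymes enter, stood at 22.9, 40.0 and 98.3 CPM in wt and at 13.1, 17.9 and 7.32 CPM in the other group. Of the 4 effector genes it alone did not overlap (−1.85 ± 0.66).

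Gzmb, granzyme B, stood at 27.2, 69.0 and 155 CPM in wt and at 19.5, 52.3 and 19.0 CPM in the libraries labelled flt3L-/- (−1.25 ± 0.61, with overlap). Nkg7, a granule membrane protein needed for degranulation, stood at 28.3, 46.8 and 92.9 CPM in wt and at 13.4, 41.5 and 10.5 CPM in the other group (−1.43 ± 0.63, with overlap). Within a library, Gzmb relative to Gzma was higher in the labelled flt3L-/- library of each pair, by 0.66, 0.44 and 0.35 on the log2 scale. The ratio itself overlapped between the groups, from 0.949 to 1.63 in wt and from 1.499 to 2.08 in the others.

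Ratios within a library do not depend on its total. They were chosen after the values of the genes had been seen and are given without a test. The summed activating Klra genes (Klra4 and Klra8) relative to the 9 inhibitory ones stood at 0.826, 0.697 and 1.26 in wt and at 0.358, 0.274 and 0.345 in the libraries labelled flt3L-/-. The groups lay apart, and the log2 difference was −1.47 ± 0.35 (SD, n = 3 pairs), with pair 3 lowest at −1.87 and pair 1 highest at −1.21. Klra4 alone, which shares no 81-base window with another gene, relative to the sum of Klra7 and Klra9 stood at 0.470, 0.362 and 0.559 in wt and at 0.170, 0.117 and 0.145 in the others, also without overlap. Outside the Klra family the 8 activating receptors relative to the 4 inhibitory ones overlapped, at 2.08, 2.22 and 3.13 in wt and 2.09, 2.09 and 2.53 in the libraries labelled flt3L-/-. Over all families, of the 8 activating receptors that were tested, Klra4 and Klra8 included, 8 were lower in each pair and 6 did not overlap. Of the 9 inhibitory receptors tested over all families, 6 were lower in each pair and 2 did not overlap (Klra10 and Klrb1b). Of these 2, Klra10 passed the filter through its wt libraries alone. The shares of all genes tested were 11.5% and 2.92%. The difference between these kinds of receptor was not tested.

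**Figure D3:**
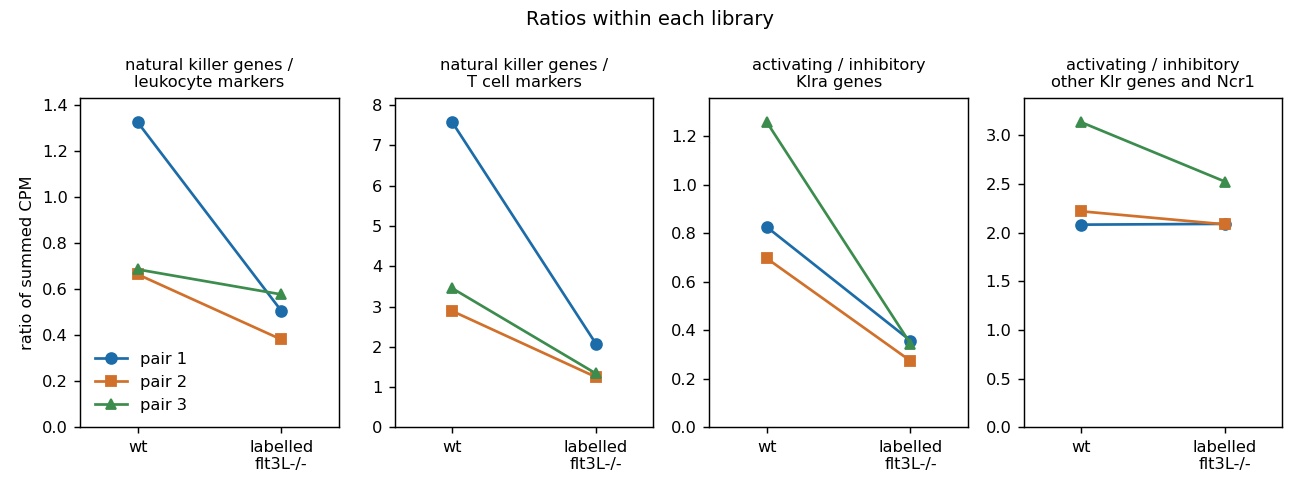
Ratios of summed CPM within each library (linear axes from 0), joined by sorting date, for the members relative to leukocyte markers and to T cell markers and for activating relative to inhibitory receptors within and outside the Klra family. The first 3 ratios do not overlap between the groups, whereas the ratio outside the Klra family lies between 2.08 and 3.13 in wt and between 2.09 and 2.53 in the libraries labelled flt3L-/-.

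The libraries also differed in markers of other blood cells. The 7 pan-leukocyte markers (Ptprc, which encodes CD45, Coro1a, Cd52, Cd53, Laptm5, Rac2 and Cd37) summed to 196, 629 and 1351 CPM in wt and to 254, 697 and 168 CPM in the libraries labelled flt3L-/-. They were thus slightly higher in the labelled flt3L-/- library of pairs 1 and 2 (log2 differences of 0.37 and 0.15) and lower in that of pair 3 (−3.01). The 14 T cell markers showed the same directions, at 34.2, 145 and 268 CPM in wt and 61.6, 212 and 72.3 CPM in the others, with log2 differences of 0.85, 0.55 and −1.89. Defining genes of T cells were present in all libraries, with Cd3e at 1.91 to 25.9 CPM in wt and 6.97 to 22.2 CPM in the others. The 9 B cell markers summed to at most 15.9 CPM in a library.

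Relative to the leukocyte markers of its own library, the summed member level stood at 1.32, 0.664 and 0.685 in wt and at 0.506, 0.381 and 0.577 in the libraries labelled flt3L-/-. It was lower in each pair and did not overlap, with log2 differences of −1.39, −0.80 and −0.25, so that the pair with the largest drop in CPM had the smallest drop in this ratio. Relative to the T cell markers it stood at 7.58, 2.89 and 3.45 in wt and at 2.08, 1.25 and 1.34 in the others, with log2 differences of −1.86, −1.21 and −1.37. The part of the leukocyte content in the pair 3 difference was not tested.

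Markers of other cells moved in several directions. Log2 differences in pairs 1, 2 and 3 were 1.88, 0.53 and −2.43 for the 11 macrophage and monocyte markers, and 1.03, 1.05 and −2.86 for the 9 neutrophil and mast cell markers. They were 0.44, 0.02 and 0.54 for dendritic cell markers, and 0.37, −0.31 and 0.11 for endothelial markers. The dendritic sum did not stand for each gene of its list. Over its 8 tested genes the median differences were 0.48, −0.45 and −0.07. Fitted log2 fold changes of these genes ran from −2.36 to 0.49, with 3 below 0. The fibroblast list gave −1.25, 0.04 and −1.09, and pericyte and smooth muscle markers −0.70, 0.16 and −0.85. Cardiomyocyte markers were higher in each pair (0.72, 0.27 and 0.16), and erythroid markers gave 1.01, 0.01 and 0.03. The list of other innate lymphoid cells was lower in each pair, as the members were (−1.63, −0.10 and −1.08), but summed to at most 9.60 CPM, with 2 of its 8 genes at 0 in every library. The part of these cell types in the members' difference was not tested.

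**Figure D4:**
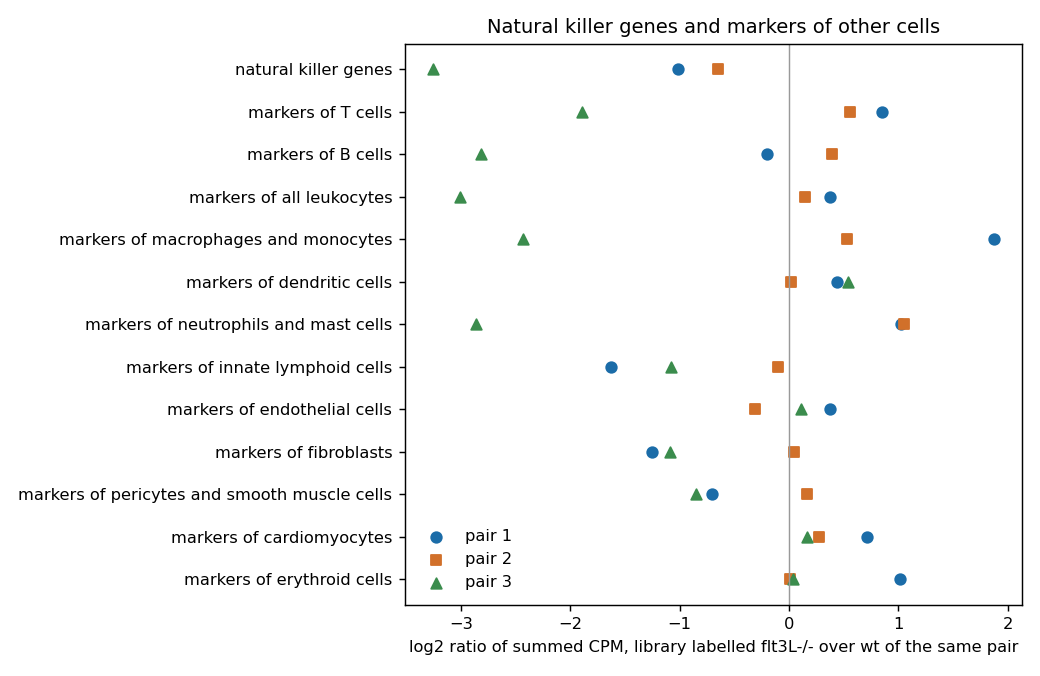
Log2 ratio of summed CPM between the library labelled flt3L-/- and the wt library of the same date, for the 37 natural killer genes and for 12 lists of marker genes of other cells. The natural killer genes lie below 0 in all 3 pairs (−1.02, −0.65 and −3.26), while leukocyte, T cell, macrophage and neutrophil markers lie above 0 in pairs 1 and 2 and below 0 in pair 3.

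Other genes of NK cell biology, in lists written with earlier results known, passed edgeR's adjusted threshold in no case, so the counts that follow use its unadjusted p under 0.05 (background 2.49% lower and 1.11% higher). Of the 11 cytokine receptors, 3 were lower and 0 higher. Il2rb, the signalling chain shared by the receptors for interleukins 2 and 15, stood at 64.6, 99.3 and 188 CPM in wt and at 26.4, 54.5 and 13.6 CPM in the libraries labelled flt3L-/-, without overlap (−1.92 ± 0.65). The receptor chains for interleukin 18, Il18r1 and Il18rap, had log2 fold changes of −1.95 ± 0.53 and −1.69 ± 0.59. The genes of this list with the most reads, Ifngr1, Tgfbr2 and Il2rg, had log2 fold changes of 0.02, −0.03 and 0.31.

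Of the 21 other surface receptors, 1 was lower, S1pr5, a sphingosine phosphate receptor by which NK cells leave lymphoid organs and marrow (−1.65 ± 0.50, without overlap). The most abundant ones, S1pr1, Itga1 and Itgal, had log2 fold changes of 0.41, 0.10 and −1.24. Of the 15 adaptor and signalling genes tested, 0 were lower or higher by edgeR's unadjusted p, and DESeq2's unadjusted p gave 1 lower, Sh2d2a. Lower in each pair were 2 of the 15, against 11.5% of all genes tested. These were Sh2d2a (−1.49 ± 0.59) and Hcst (−0.93 ± 0.58), named after their values were seen. Fyn, Inpp5d and Lck, which had the most reads, had log2 fold changes of 0.25, −0.34 and −0.46. Tyrobp (DAP12), the adaptor through which Klra4 and Klra8 signal, was chosen after its values were seen and stood at 10.2, 41.6 and 81.9 CPM in wt and at 15.5, 56.0 and 4.87 CPM in the others. It was thus higher in the labelled flt3L-/- library in pairs 1 and 2, where both receptors were lower. Myeloid cells express Tyrobp as well.

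Of 15 further transcription factors tested, Zeb2, which acts in late NK cell maturation, and Gata3 were lower (−1.06 ± 0.24 and −0.80 ± 0.29, both without overlap). Both were highest in pair 1 of wt, at 81.2, 51.65 and 49.5 CPM for Zeb2 and 33.6, 20.6 and 19.9 CPM for Gata3. The member sum was instead lowest there (259, 418 and 926 CPM). Which cells their reads came from was not tested. Ets1, Id2 and Rora, with the most reads, had log2 fold changes of −0.15, −0.11 and −0.03. Of 14 further effector genes and cytokines tested, Ifng, at 0.855, 1.32 and 3.20 CPM in wt and 0.401, 0.509 and 0.475 CPM in the others, was lower without overlap (−1.75 ± 0.56). It passed the filter through its wt libraries alone, so a lower value in the other group was built in. Gzmk was lower too (−1.20 ± 0.45), and Tnf was higher (0.77 ± 0.27, with overlap). Lamp1, Srgn and Ccl5, with the most reads, had log2 fold changes of −0.25, 0.32 and −1.22.

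Ligands of NK receptors had a median log2 fold change of 0.34, and of 0.19 without pair 3. Of 11 tested, Pvr, a ligand of activating and inhibitory receptors on NK cells, was higher (0.42 ± 0.14), and Cd1d1, which presents lipids, was lower (−0.79 ± 0.28). The MHC class I genes H2-D1, B2m and H2-K1 had log2 fold changes of 0.45, 0.46 and 0.34, and of 0.35, 0.16 and 0.21 without pair 3. Among cytokines on which NK cells depend, Il15 was higher in each pair, at 10.7, 14.8 and 18.1 CPM in wt and at 16.7, 19.5 and 23.4 CPM in the libraries labelled flt3L-/- (0.47 ± 0.16, with overlap). Tgfb1 had a log2 fold change of 0.14 and Flt3l one of 0.37.

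Promoters were searched for motifs of 3 families of NK cell transcription factors, in the 250 bases before the RefSeq start on GRCm38.p6, on both strands, for the 30 members with a promoter entry. The Runx motif TGTGGTT (or AACCACA) was present for 6 members (Gzma, Gzmb, Klra1, Klre1, Klrk1 and Ncr1), and for 5.08% of all 27025 genes. The T-box motif GGTGTGA (or TCACACC) was present for 1 member, Nkg7, and for 3.84% of all genes. The Ets motif CAGGAAG (or CTTCCTG) was present for 4 members (Klra1, Nkg7, Prf1 and Tbx21) and for 12.1% of all genes. A match is a description of letters and not a binding site. Shown are the promoters of Klrk1 (chr6:129623865-129624114, minus strand), Gzma (chr13:113100982-113101231, minus strand) and Ncr1 (chr7:4337474-4337723, plus strand), an activating receptor, an effector and the receptor most closely tied to NK cells, with the Runx motif in capitals.
Klrk1 promoter: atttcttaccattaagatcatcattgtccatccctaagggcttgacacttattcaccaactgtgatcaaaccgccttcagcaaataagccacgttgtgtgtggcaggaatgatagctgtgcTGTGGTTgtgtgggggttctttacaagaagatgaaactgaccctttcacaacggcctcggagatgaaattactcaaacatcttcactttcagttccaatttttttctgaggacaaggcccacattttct
Gzma promoter: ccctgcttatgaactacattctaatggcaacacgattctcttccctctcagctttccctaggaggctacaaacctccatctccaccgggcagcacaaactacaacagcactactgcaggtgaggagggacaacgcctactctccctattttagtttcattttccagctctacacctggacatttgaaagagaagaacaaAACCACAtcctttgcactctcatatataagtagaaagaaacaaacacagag
Ncr1 promoter: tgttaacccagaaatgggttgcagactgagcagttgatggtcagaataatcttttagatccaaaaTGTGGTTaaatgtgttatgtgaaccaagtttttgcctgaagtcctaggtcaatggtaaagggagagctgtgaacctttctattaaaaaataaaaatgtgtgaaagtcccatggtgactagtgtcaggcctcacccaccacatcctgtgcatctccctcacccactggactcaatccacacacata
Of these 3 genes, Klrk1 did not overlap between the groups, and Gzma and Ncr1 did.

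Because the Klr genes arose by duplication, reads of one may fit another. A window of 81 bases, the read length, was slid along every transcript, and the share of windows found in another gene was counted. It was 23.8% for Klrb1b (mostly with Gm44511), 22.1% for Klrc1, 17.8% for Klra8 (mostly with Klra14-ps), 12.4% for Klrb1c, 10.3% for Klrc2, 9.63% for Klra9 and 5.01% for Klra13-ps. Values of these genes are uncertain, since reads with up to 10 hits were kept. The share counts exact matches alone, so it neither measures nor bounds this uncertainty. Reads with mismatches and uneven coverage were not examined. Of the members, 20 shared no window, and 15 of these were tested. Of these 15, 12 were lower in each pair, including Klra4, Klrk1, Klrd1, Ncr1 and the 4 effector genes, where 11.5% of all genes tested were. Klra1, Klra2, Klrg2 and the 5 that were not tested were not lower in each pair.

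**Figure D5:**
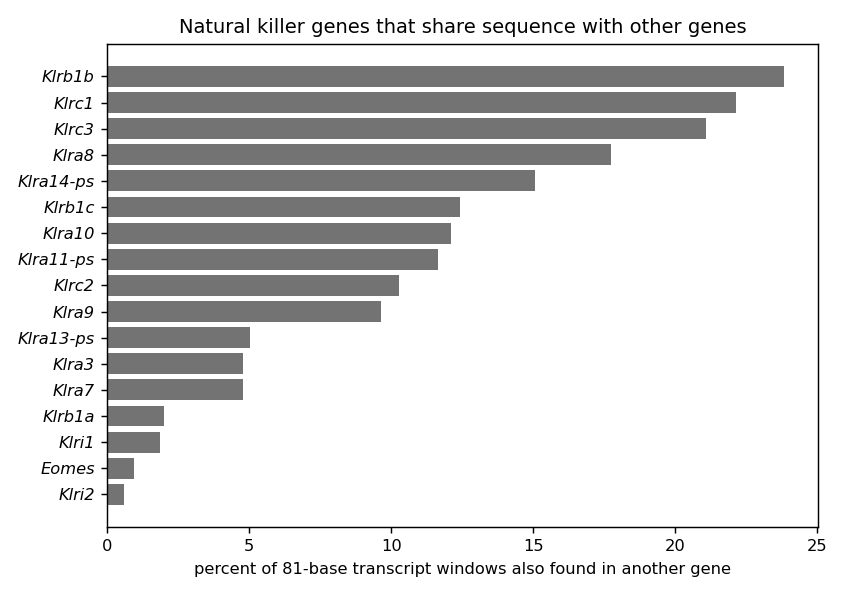
Percent of the 81-base windows of a gene's transcripts that also occur in another gene, for the members in which this share is above 0. Klrb1b (23.8%), Klrc1 (22.1%) and Klrc3 share the most, and members not shown, among them Klra4, Klrk1 and the 4 effector genes, share none.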

How the data were processed

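The deposited values are whole-number counts of reads per gene, without normalization. According to the study's methods and labels, the authors made unstranded SMART-Seq v4 libraries, mapped single reads of 81 bases to mm10 with STAR 2.5.2a, kept reads with up to 10 hits, and counted reads on genes of Ensembl release 88 with QuasR. The file held 3 wt and 3 flt3L-/- libraries. Biotypes and positions came from GENCODE M21 (50376 genes matched, 224 did not and were treated as not protein-coding), coding sequences from its transcripts, and promoters from RefSeq.

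Groups were compared on the counts in edgeR 4.0.16 (R 4.3.3) with glmQLFit and glmQLFTest (legacy = TRUE), TMM factors and the sorting date as a covariate, on those protein-coding genes that exceeded 1 CPM in 2 or more libraries. Standard errors (SE) followed from the fitted fold change and its F statistic. A prior count of 2 was added for log2 differences between the libraries of a pair. Scripts were tested on simulated data. P-values measure the spread between these pools. The labels' sorting dates and the study's methods pair the libraries, and deviations from the group means correlated at 0.180, 0.104 and 0.116 within dates, against −0.354 to 0.247 between dates. No library was a copy of another (chi-square per degree of freedom of 38.8 or more).

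The members and lists were chosen with earlier results of these data known. Named with all values are Klrk1, Klrb1c, the 7 genes added singly and, per subfamily, the 3 members with the highest mean CPM (Klrc3 and Klri1 as limits). Klra4, Klra7 and Klra2 lie outside this rule and were named after their values were seen. The log2 fold changes of Klra1, Klra3 and Klra10 were added likewise, and the other members are given in ranges. Of other lists, the 3 genes with the most reads and those with an unadjusted p under 0.05 are named for NK biology, and sums are given for marker lists. Raet1a, Raet1b, Raet1c, H60a and Cd244 were not matched. Alternatives were DESeq2 1.42.0, 2 other normalizations, 3 other filters, all biotypes, legacy = FALSE, no replicate block and each pair left out. Counts of members lower in every pair under other normalizations were added after the values were seen.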

Additional observations from a re-analysis of the deposited data

How the results depend on the processing

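The number of genes called differed between the tools as run here. The study's own edgeR fit did report genes, and why its result differs from the edgeR fits here was not tested. DESeq2 called 21 of all genes tested and 2 members (Klra4 and Klrb1b), whereas edgeR called 0 and 0 under all other settings tried, including each pair left out (0 to 0). In the fit with no replicate block, which ignores the pairing by date, it again called 0 genes and 0 members, the median log2 fold change of the tested members was −1.75, and 17 members were lower at an unadjusted p under 0.05 (1.25% of all genes tested). Over the 26 tested members, 295 of 300 log2 fold changes under alternatives kept their sign. Of the exceptions, 1 was Klrg2, which ranged from −0.013 to 0.54 with a pair left out and took the lower value without pair 3. The others were Klra2, at −0.14 with legacy = FALSE, at −0.30 with no replicate block, and from −1.76 to 2.17 with a pair left out, negative without pair 1 or 2. The median over tested members lay between −2.29 and −0.90 with a pair left out and between −1.75 and −1.59 under the other settings, and the mean log2 difference of the summed members between −2.14 and −0.83 with a pair left out. The number of members lower in every remaining pair was 28, 28 and 25 without pairs 1, 2 and 3, where 25.1%, 24.7% and 20.3% of all genes tested were lower in both remaining pairs, and 25 under both other normalizations. Within the 3 pairs of pooled libraries, the log2 differences of the summed members were −1.02, −0.65 and −3.26 (SD 1.41). Differences within this spread could not be resolved. A group of 3 is too small for the check of single libraries that stand apart.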
